A study of Mus musculus with 4 samples.

Results

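The hormone and granule genes of enteroendocrine cells were followed through single-cell RNA sequencing of mouse intestinal organoids. The set held 10 of the 31040 genes in the deposited count tables, matched by symbol: Chga, Chgb, Tph1, Tac1, Gcg, Pyy, Cck, Sct, Ghrl and Reg4. Cells with 5 or more unique molecular identifiers (UMIs, 1 per captured RNA molecule) of Chga and Chgb together are called granin cells here, and 188 of the 5362 retained cells met this limit. The level of the 10 genes was described inside and outside granin cells, their overlap within single granin cells was counted, and organoids with Cbl and Cblb deleted were compared with controls.

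Organoids, epithelial cultures that grow from intestinal crypts, were started from 2 mice aged 10 weeks that carried the alleles Cbl flox/flox, Cbl-b flox/flox and R26Cre ERT2, a Cre recombinase that tamoxifen activates in every cell type in which the R26 locus is active. Cultures of each mouse were split into an untreated control and a knockout, which was exposed over 3 days to 400 nM 4-hydroxytamoxifen so that Cre removes Cbl and Cblb. Both genes encode ubiquitin ligases that act on receptor tyrosine kinases. Controls carried the same floxed alleles and the same Cre but saw no drug, so deletion and drug exposure cannot be told apart. The control and the knockout group had 2 libraries each, numbered 1 and 2 after the mouse.

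Enteroendocrine cells are scattered hormone-secreting cells of the gut lining. They pack peptide hormones or serotonin into dense-core granules together with granins, acidic proteins that help cargo condense, and release them when they sense nutrients or other stimuli. Cells of the enterochromaffin type make serotonin and often the tachykinin substance P, while other types make the peptides of Gcg, Pyy, Cck, Sct and Ghrl in overlapping mixtures.

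Retained cells numbered 682 to 1903 per library, with medians of 16080 to 27458 UMIs per cell. Granin cells were shallower than the others in each library: their medians were 13778, 18019, 8628 and 8522 UMIs in control 1, control 2, knockout 1 and knockout 2, against 20556, 27798, 16604 and 17975. Libraries shared at most 1 cell barcode. Cbl was at 16.9 and 19.9 CPM (UMIs of a gene per 1000000 UMIs) when all control cells were summed, and at 12.3 and 10.5 CPM in the knockouts; Cblb was at 8.53 and 3.93 against 3.34 and 0.463. In granin cells alone Cbl was at 28.1 and 34.9 against 24.6 and 26.6 CPM, from 12 to 24 UMIs a library, and Cblb at 43.3 and 2.91 against 26.5 and 2.79 CPM, where the groups overlapped and the number 2 libraries rest on 1 and 2 UMIs. Over all cells, neither gene passed the test with the group as the only term (edgeR quasi-likelihood test, Benjamini-Hochberg adjusted p = 0.563 and 0.584), and both did with the mouse as a block (adjusted p = 0.0248 and 0.0242). Reads outside the deleted exons would not show the deletion, and UMIs were not resolved by exon.

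The limit of 5 UMIs fell in a sparse stretch of the granin counts. Of the retained cells, 5016 had 0 UMIs of Chga and Chgb, 145 had 1, 10 had 2 and 3 had 3, while 1 had 5, 5 had 6 and 174 had 12 or more. The granin cells matched the enteroendocrine label in genes that did not choose them: all 10 other enteroendocrine markers were detected, and their summed level was 2004 to 3330 CPM across libraries, against 7.76 to 23.2 CPM in the other cells. Of these cells, 182 lay in 1 cluster of 219 cells led by Gcg, Chgb, Cck and Pyy. The 37 cells of that cluster below the limit held Neurog3, the factor that starts endocrine differentiation, in 25 cells and Insm1, a zinc-finger factor of endocrine cells, in 30; of the 182 cells above the limit, 51 held Neurog3 and 152 held Insm1. Among markers of other types, erythroid genes were at 0 UMIs (6 of 6), tuft genes at 0 for 5 of 10 (summed level 0 to 3.51 CPM) and mesenchymal genes at 0 for 7 of 8. Markers of 2 other types were higher in granin cells than in the rest: the glial and neuronal genes (3 of 8 at 0, among them Sox10 and Gfap) summed to 58.6 to 86.6 CPM against 2.57 to 3.48, and the endothelial genes (4 of 7 at 0, Cdh5, Kdr, Emcn and Plvap) to 17.5 to 36.3 against 4.27 to 10.7. Goblet genes summed to 1669 to 3802 CPM in granin cells against 4754 to 10322 in other cells, and Paneth genes to 1546 to 2810 against 20654 to 29736. Enterocyte genes summed to 877 to 1133 CPM against 2088 to 11518. Immune genes (7 of 10 at 0 in granin cells) were low in both, at 2.91 to 5.85 CPM against 4.69 to 8.59. They were higher in granin cells of control 1 alone, at 5.85 against 4.76 CPM. Stem and cycling genes were lower in granin cells of each library but came close in control 2, at 679 against 968 and 1736 against 1937 CPM. A single cell held 159107 of the 343396 granin-cell UMIs of control 2, and its part in these sums was not tested. In knockout 2 the mesenchymal genes summed to 6.99 CPM against 0.0296 in other cells.

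Upstream sequences are shown for 3 hormones that shared cells, Gcg, Cck and Sct, and for Reg4, the member with most of its RNA outside granin cells. Each is the 250 bases before the RefSeq transcription start in GRCm38.p6, read 5′ to 3′ on the gene's strand, and capitals mark CANNTG, the E-box core that basic helix-loop-helix factors such as Neurog3 and Neurod1 recognise. The windows are chr2:62483654-62483903 (minus strand), chr9:121495695-121495944 (minus), chr7:141279134-141279383 (minus) and chr3:98221906-98222155 (plus).
Gcg: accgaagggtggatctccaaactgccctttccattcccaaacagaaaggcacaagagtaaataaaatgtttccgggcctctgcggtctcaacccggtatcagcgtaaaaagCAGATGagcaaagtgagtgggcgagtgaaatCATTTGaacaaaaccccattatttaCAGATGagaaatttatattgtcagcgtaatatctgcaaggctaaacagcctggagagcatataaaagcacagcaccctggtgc
Cck: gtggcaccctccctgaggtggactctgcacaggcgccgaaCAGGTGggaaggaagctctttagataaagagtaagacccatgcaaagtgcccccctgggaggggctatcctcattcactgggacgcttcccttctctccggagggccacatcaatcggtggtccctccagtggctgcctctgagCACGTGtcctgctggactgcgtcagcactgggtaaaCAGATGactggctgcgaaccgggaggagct
Sct: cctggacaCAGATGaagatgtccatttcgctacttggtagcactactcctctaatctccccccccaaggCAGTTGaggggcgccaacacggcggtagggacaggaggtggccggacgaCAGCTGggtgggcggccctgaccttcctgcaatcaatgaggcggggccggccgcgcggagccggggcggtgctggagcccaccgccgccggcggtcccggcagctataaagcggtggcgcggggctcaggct
Reg4: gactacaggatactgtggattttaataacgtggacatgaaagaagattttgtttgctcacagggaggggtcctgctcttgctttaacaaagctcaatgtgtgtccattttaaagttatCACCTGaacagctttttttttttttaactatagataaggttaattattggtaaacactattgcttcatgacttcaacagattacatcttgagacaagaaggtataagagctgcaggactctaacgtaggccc
Over both strands, CANNTG was found in 11 of the 15 windows of the 10 genes and in 66.2% of all 32851 windows of this length. The form CAGATG was in the windows of Gcg, Cck, Sct and Tac1, and in 14.4% of all windows; every CAGATG also counts as a CANNTG match. The form CAGCTG was in windows of Chga, Sct and Ghrl (13.0% of all), TATAAA in those of Gcg and Sct (12.4%), TAATTA, a homeodomain core, in those of Tph1, Tac1 and Reg4 (4.84%), and the cyclic AMP response element TGACGTCA in that of Chgb (1.55%). A match is a run of letters, with no binding measured here.

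The RNA of 8 of the 10 genes was almost entirely in granin cells. Of all UMIs of a gene in retained cells, granin cells held 99.0% for Chga and 99.6% for Chgb, which chose the cells, and 99.5% for Tph1, 99.1% for Tac1, 99.1% for Gcg, 98.9% for Cck, 98.4% for Pyy and 98.1% for Ghrl. Sct departed from this with 74.2% (95% exact binomial interval 73.6 to 74.9%) and Reg4 with 25.8% (25.4 to 26.3%). Intervals cover counting error only.

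**Figure D1:**
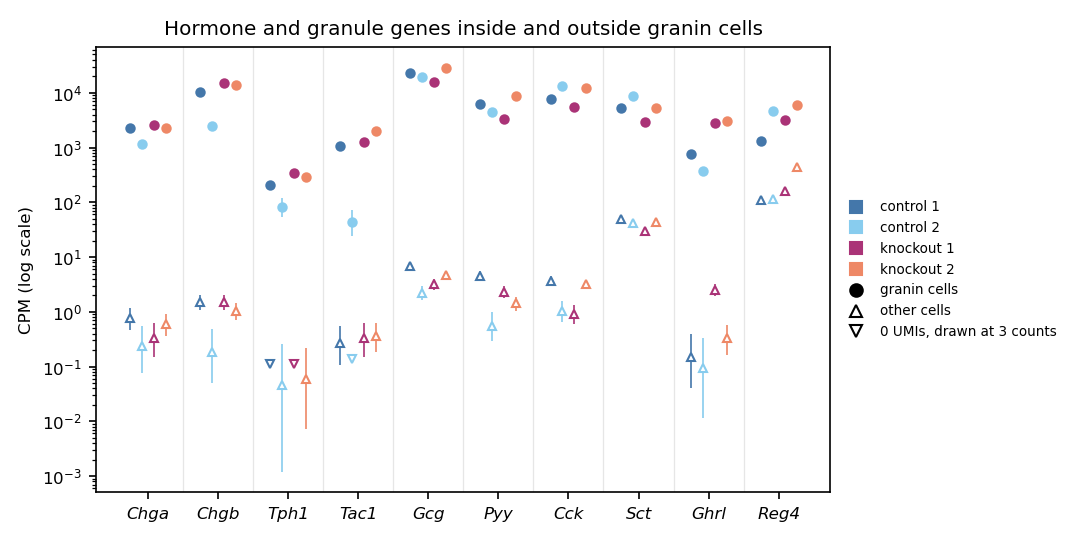
CPM of each gene (log scale) in the summed granin cells (filled circles) and the summed other cells (open triangles) of the 4 libraries, with exact 95% counting intervals; inverted triangles mark 0 UMIs, drawn at the level of 3 counts. Sct and Reg4 stayed at 29.9 to 448 CPM in other cells, where the other genes were below 7 CPM.

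Sct encodes secretin, the hormone that makes the pancreas release bicarbonate. Outside granin cells it was at 143 CPM in goblet-like, 171 in Paneth-like and 226 in tuft-like cells pooled over libraries, and at 25.7 in enterocyte-like, 1.47 in stem-like and 1.89 in cycling-like cells. The 37 cells of the enteroendocrine cluster below the limit had Sct at 298 CPM and Gcg at 294 CPM. With each cell thinned to 5000 UMIs, 41.5% of goblet-like and 49.8% of Paneth-like cells held an Sct UMI (67.8% and 76.0% unthinned, at medians of 19745 and 15632 UMIs), against 0.759% of stem-like and 1.16% of cycling-like cells. The tuft-like value rests on 35 UMIs in 31 cells. Gcg, which should be absent from the 6 classes other than the enteroendocrine cluster, was at 2.44 to 6.46 CPM in each of them, and no more than 3.38% of thinned cells of a class held a UMI of it.

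Reg4 encodes a secreted lectin of the regenerating family that is known from deep secretory cells and from enteroendocrine cells of the gut. It was at 841 CPM in goblet-like and 1430 CPM in Paneth-like cells, and at 1.61 in enterocyte-like, 4.07 in stem-like and 3.69 in cycling-like cells. Of thinned cells, 56.6% of the goblet-like and 85.2% of the Paneth-like held a Reg4 UMI, and 0.349% of the enterocyte-like did. Tuft-like cells had 0 Reg4 UMIs.

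**Figure D2:**
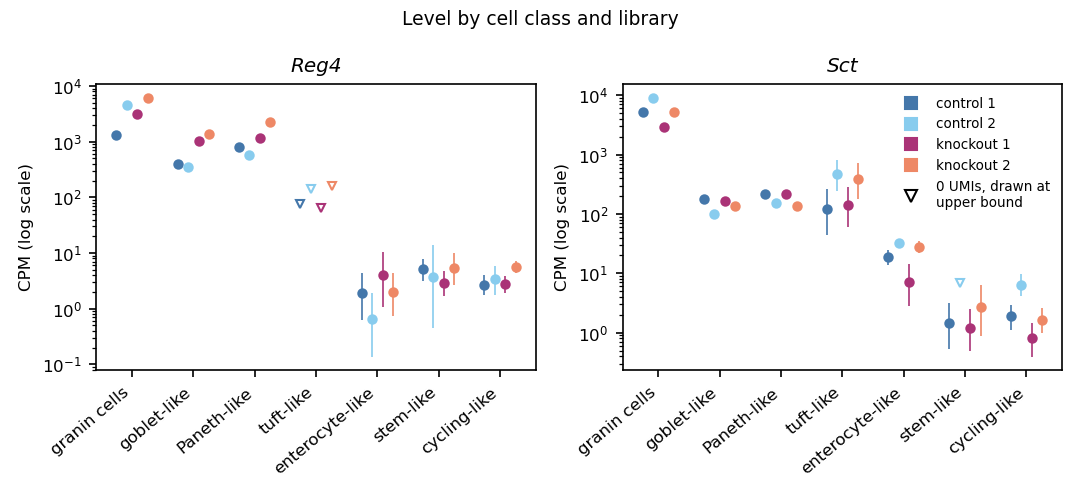
Reg4 (left) and Sct (right) in CPM on a log scale, by cell class and library, with exact 95% counting intervals; open inverted triangles mark 0 UMIs. Reg4 in goblet-like cells lay at 356 and 401 CPM in the controls and at 1037 and 1392 CPM in the knockouts.

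Chga and Chgb encode chromogranins A and B. Of the 188 granin cells, which they chose, Chga was present, meaning at 5 or more UMIs, in 157 and Chgb in 164. Their RNA reached 2.85% and 11.9% of a single cell's UMIs. In the order control 1, control 2, knockout 1, knockout 2, the 10 genes together made up 5.77%, 5.47%, 5.21% and 8.23% of all UMIs of granin cells, and single cells ranged from 0.0182% to 29.3%.

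Tph1 and Gcg were not found in the same cells. Tph1, the rate-limiting enzyme of serotonin synthesis in the gut, was present in 36 cells and Gcg, which encodes the precursor of glucagon-like peptides, in 65. The 36 Tph1 cells had 0 Gcg UMIs, which allows up to 8.33% of such cells with a Gcg UMI, and the 65 Gcg cells had 0 Tph1 UMIs, which allows up to 4.62% with a Tph1 UMI. Limits from counts of 0, here and below, are 3 divided by the number of cells, an approximation that is coarse for few cells. These limits cover counting error in the number of cells with a UMI, and cells that express a gene without a captured UMI are not covered. The same was seen for Tph1 and Ghrl (0 of 40 Ghrl cells, up to 7.50%), while Tph1 met Cck in 1 cell and Pyy in 1 cell, both in knockout 2.

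**Figure D3:**
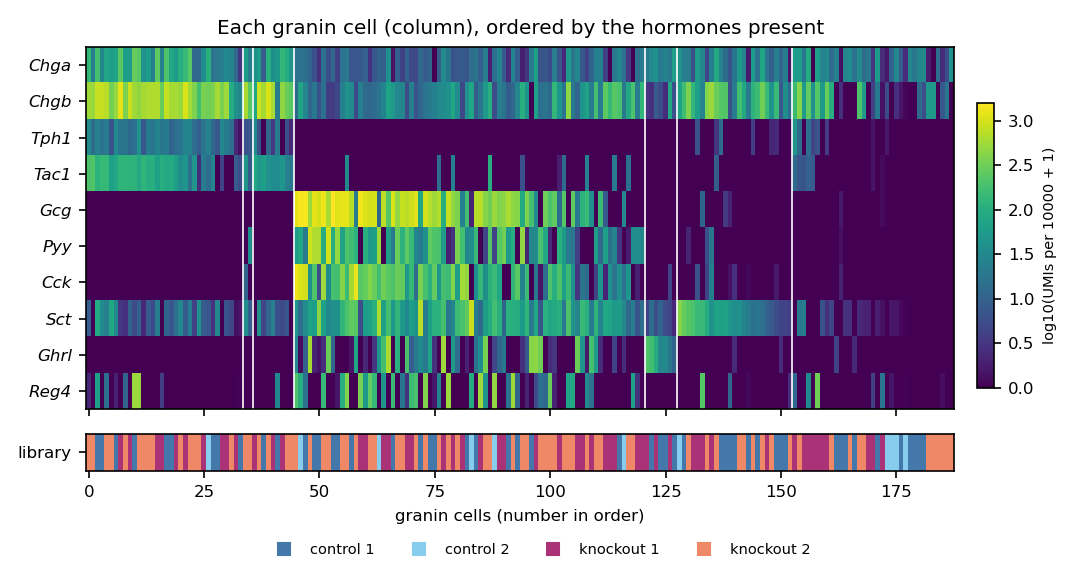
Each column is 1 of the 188 granin cells and each row a gene; colour gives log10 of UMIs per 10000 plus 1, white lines separate classes by the hormones present (from the left: Tph1, both kinds, Tac1 alone, Gcg, Cck or Pyy, Ghrl alone, Sct alone, none), and the strip below gives the library. Cells were ordered by these hormones, so the blocks are set by the ordering; Sct, which did not define the Tph1 block of 34 cells or the Gcg, Cck or Pyy block of 76, is seen in both.

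Tac1, the precursor of substance P, went with Tph1. It was present in 49 cells, of which 31 also held Tph1, so 86.1% of Tph1 cells held Tac1 and 63.3% of Tac1 cells held Tph1. By library, 8 of 9 Tph1 cells held Tac1 in control 1, 1 of 1 in control 2, 8 of 10 in knockout 1 and 14 of 16 in knockout 2.

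Gcg, Cck and Pyy went together. Cck, whose peptide contracts the gallbladder, was present in 64 cells, and 58 of these held Gcg. Pyy, a peptide of the distal gut that slows transit and appetite, was present in 60 cells, of which 50 held Gcg. In control 1, control 2, knockout 1 and knockout 2, the cells holding Gcg and Cck numbered 13, 4, 13 and 28 of 15, 4, 18 and 28 Gcg cells. Ghrl, the precursor of ghrelin, was present in 40 cells, and 31 of these held Gcg.

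Sct was the one peptide hormone found in most Gcg cells and in most Tph1 cells. It was present in 127 of 188 granin cells, in 64 of 65 Gcg cells, in 64 of 64 Cck cells and in 24 of 36 Tph1 cells. The level differed. Pooled Sct was 11160 CPM in the 76 cells with Gcg, Cck or Pyy and no Tph1. It was 1071 CPM in the 34 cells with Tph1 and none of those 3. Deep cells of this Tph1 class, of 124305 UMIs in control 1 and 66118 in knockout 1, held 6 and 2 Sct UMIs. They lower the pooled Sct level of the class. The same deep cells enter the other pooled levels of the Tph1 class given below, where their effect was not tested.

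**Figure D4:**
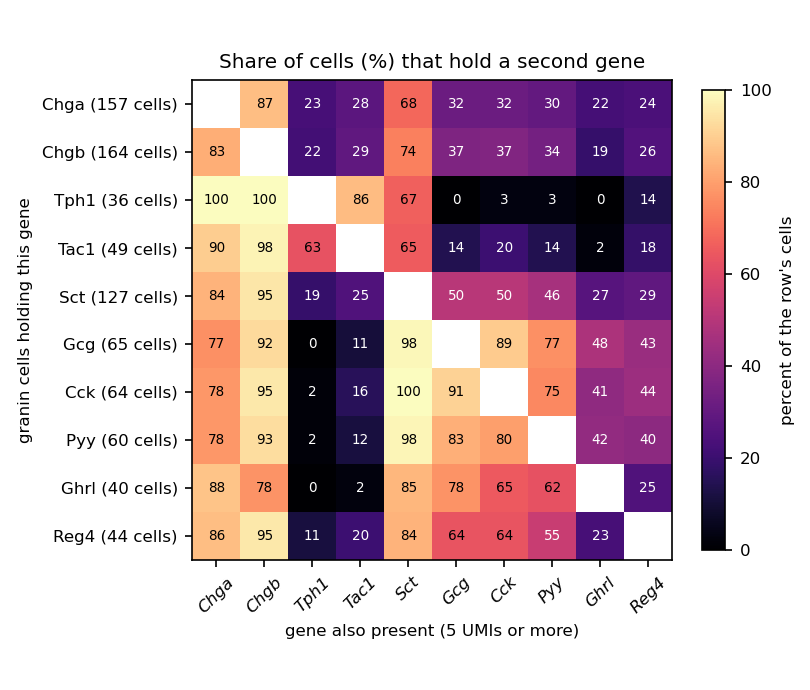
Of the granin cells that hold the gene of a row (cells given in brackets), the percent that also hold the gene of a column, with present meaning 5 or more UMIs. The row of Tph1 is at 0 for Gcg and Ghrl and at 86 for Tac1; the row of Cck is at 91 for Gcg and 100 for Sct.

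Co-expression of several hormones was common. Counting Gcg, Cck, Sct, Tac1, Tph1, Ghrl and Pyy, 35 cells held none, 40 held 1, 22 held 2, 33 held 3, 32 held 4 and 26 held 5. The most frequent sets were Sct alone (25 cells), Gcg, Cck, Sct, Pyy with Ghrl (20 cells) or without it (20 cells), and Sct, Tac1 and Tph1 (19 cells). In the single cell with the most Gcg, from control 2, 5348 of 35989 UMIs were Gcg, 3806 were Cck, 376 were Reg4, 292 were Pyy and 47 were Sct, with Tph1 and Tac1 at 0. In the cell with the most Tac1, from control 1, 230 of 16517 UMIs were Tac1, 1385 were Chgb, 58 were Sct and 26 were Tph1, with Gcg, Cck, Pyy and Ghrl at 0.

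Tac1 was found beside Cck in a few cells. The cells holding Tac1 and Cck numbered 0 of 14 Cck cells in control 1, 0 of 4 in control 2, 2 of 15 in knockout 1 and 8 of 31 in knockout 2. By the same approximation, which is rough at 4 cells, counts of 0 allow up to 21.4% and 75.0% of Cck cells with 5 or more Tac1 UMIs in the 2 controls. The groups therefore cannot be separated at this number of cells, and the difference was not tested.

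Correlations were taken over the 188 cells. They are Pearson coefficients of log2(UMIs per 10000 + 1) with the mean of each library subtracted, and cells share libraries and differ in depth. Here r was 0.85 for Gcg and Cck, 0.72 for Gcg and Pyy and 0.75 for Tph1 and Tac1; it was -0.43 for Tph1 and Gcg. Of genes outside the set, Tph1 was most like Rab3c, a vesicle GTPase (0.68), Slc18a1, the vesicular monoamine transporter (0.67), and Lmx1a, a homeodomain factor of serotonin-producing cells (0.64). Tac1 was most like the sodium channel gene Scn3a (0.64), followed by Gstt1 (0.58) and Rab3c (0.57). Gcg was most like the fatty acid receptor gene Ffar1 (0.79), the granin gene Scg2 (0.73) and Tm4sf20 (0.67).

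The remaining members had similar neighbours. Cck was most like Ffar1 (0.77), Scg2 (0.70) and Tm4sf20 (0.67), Pyy like Ffar1 (0.72), Scg2 (0.63) and Scin (0.59), and Sct like Scg2 (0.66), Ffar1 (0.59) and Cdhr5 (0.59). Ghrl was most like Abcc8, a subunit of the ATP-sensitive potassium channel (0.50), Ffar1 (0.49) and Maged2 (0.46). Reg4 was most like Insl5, a relaxin-family hormone of the colon (0.54), and Prodh (0.53). For Chga and Chgb, whose UMIs chose these cells, the values only describe the chosen cells: Slc18a1 (0.55), Lmx1a (0.55) and Rab3c (0.53) were most like Chga, and Scn3a (0.55), Gstt1 (0.50) and Lmx1a (0.50) most like Chgb.

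Granin levels are given by class as well. Chgb was at 35293 CPM in the Tph1 class and 3987 CPM in the class with Gcg, Cck or Pyy. By library it was 30412, 32201, 34714 and 47157 CPM against 3193, 3741, 5451 and 3832 CPM, with no overlap. The deep Tph1 cells held 363 Chgb UMIs of 124305 in control 1 and 266 of 66118 in knockout 1. They lower the Tph1-class values of these libraries, and the control 2 value is of 1 Tph1 cell. Because Chga and Chgb chose the cells, the comparison is a description. Scg2, another granin, ran the other way, at 95.3 CPM against 1689 CPM.

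Other genes are given by class as a description, chosen after their values were seen. Lmx1a, Slc18a1 and Ffar1 are among the genes already named for their correlation with Tph1 or Gcg. Lmx1a was at 108 CPM in the Tph1 class and at 0 UMIs in the Gcg, Cck or Pyy class, and Slc18a1 was at 333 against 52.2 CPM. Isl1, a LIM-homeodomain factor of peptide-hormone cells, was at 0 UMIs against 361 CPM, and Ffar1 at 6.21 against 451 CPM. Of other endocrine factors, Pax6 was at 58.0 against 324 CPM, Neurod1 at 284 against 537 CPM and Insm1 at 470 against 404 CPM. Nts, which encodes neurotensin, was at 0 UMIs in the Tph1 class and at 18374 CPM in the other, found in 15 of 76 cells. Pooled Reg4 was at 2366 and 7744 CPM. The Tph1 value leaned on a cell with 608 Reg4 UMIs in control 1 and another with 424 in knockout 2. At 5 or more UMIs, Reg4 was present in 5 of 36 Tph1 cells and in 28 of 65 Gcg cells.

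Of the granin cells, 35 held none of the 7 hormones at 5 or more UMIs, though some held 1 to 4 UMIs of a hormone. In a knockout 1 cell of 872 UMIs, for example, Tph1 was at 4 UMIs and Tac1 at 1. The 35 cells had Neurog3 at 177 CPM, with at least 1 UMI in 19 cells, and Cpe, the prohormone-trimming carboxypeptidase, at 118 CPM. In the Gcg, Cck or Pyy class the same genes were at 1.06 and 1937 CPM, and in the Tph1 class at 238 CPM (Neurog3, in 16 of 34 cells) and 472 CPM. The CPM of the 35 cells is pooled and leans on a few deep cells. Among these were cells of 159107 UMIs in control 2, 52184 in knockout 1 and 51726 in control 1. It is therefore not the level of a typical cell. The 35 cells made up 10 of 51, 4 of 11, 10 of 53 and 11 of 73 granin cells in control 1, control 2, knockout 1 and knockout 2.

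The deletion was compared first by cell number. Granin cells were 4.44% of retained cells in control 1 (95% exact interval 3.32 to 5.79%), 1.61% in control 2 (0.808 to 2.87%), 3.26% in knockout 1 (2.45 to 4.24%) and 3.84% in knockout 2 (3.02 to 4.80%). Control 1 was the highest and control 2 the lowest, so both knockouts lay between the controls. The means were 3.03% ± 2.00 (SD, n = 2) in controls and 3.55% ± 0.410 (SD, n = 2) in knockouts, a difference of 0.520 percentage points (two-sided exact permutation test, p = 1.00; the smallest p that 2 against 2 libraries can give is 0.333). Without control 2, the difference was -0.893 points.

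The share of granin cells with 2 or more hormones was 52.9% in control 1, 54.5% in control 2, 60.4% in knockout 1 and 65.8% in knockout 2. Both knockouts were above both controls, by 9.32 points in the mean (exact permutation test, two-sided, p = 0.333, the smallest possible). The groups overlapped when the granin limit or the hormone limit was raised to 10 UMIs, with differences of 4.03 and 4.81 points. In cells thinned to 5000 UMIs the difference was -3.20 points (exact permutation test, p = 1.00), with control 2 then at 85.7% of 7 cells.

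Levels per library were compared next, on UMIs summed over all retained cells. These sums move with the number of granin cells and with the level in each of them. In the edgeR quasi-likelihood test with the group as the only term, 0 of the 10 genes and 0 of 13246 genes (0.0%) passed a Benjamini-Hochberg adjusted p of 0.05, with 1141 genes, Ghrl among the 10, at an unadjusted p under 0.05; DESeq2 called 1 of the 10 (Ghrl) and 0.918% of the genes it adjusted. With the mouse as a block, 2 of the 10, Ghrl and Reg4, rose in the knockout, against 12.7% of all genes called in either direction and 4.43% called higher. Without overlap between groups, Ghrl and Reg4 were higher in the knockouts, as were 22.1% of the genes tested, and Sct was lower, as were 19.1%.

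Ghrl was at 24.0, 5.85, 55.0 and 63.2 CPM over all cells of control 1, control 2, knockout 1 and knockout 2. Its log2 fold change (knockout minus control) was 1.97 ± 0.65 (SE; edgeR adjusted p = 0.563) with the group alone and 2.12 ± 0.45 (adjusted p = 0.0331) with the mouse as a block. Reg4 was at 147, 186, 218 and 563 CPM, with knockout 2 well above the other 3 libraries. Its log2 fold change was 1.21 ± 0.52 (edgeR adjusted p = 0.566), or 1.05 ± 0.23 (adjusted p = 0.0343) with the block, and without knockout 2 it was 0.30 (adjusted p = 0.886).

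Sct was at 210, 180, 85.1 and 152 CPM, with a log2 fold change of -0.74 ± 0.33 (edgeR adjusted p = 0.573). Gcg was at 719, 306, 298 and 603 CPM, Cck at 242, 209, 105 and 252, and Pyy at 198, 71.0, 65.2 and 183. For these 3 the libraries of the 2 groups overlapped, and log2 fold changes lay between -0.36 and -0.11. Chga (70.8, 18.1, 48.7 and 47.3 CPM), Chgb (326, 38.9, 282 and 286), Tph1 (6.59, 1.33, 6.51 and 5.97) and Tac1 (34.3, 0.686, 24.1 and 41.6) were each lowest in control 2, the library with 11 granin cells.

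**Figure D5:**
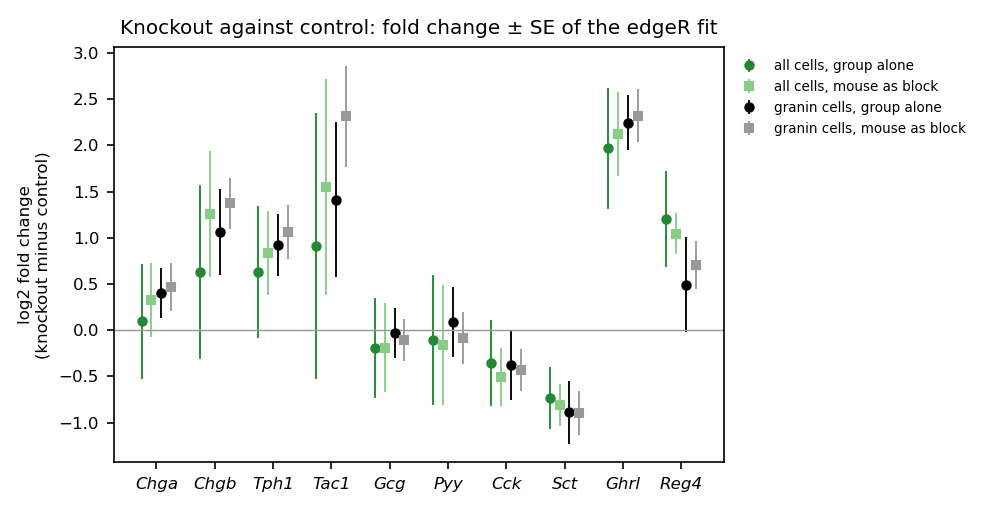
Fitted log2 fold change (knockout minus control) ± SE of the 10 genes, in sums over all cells (green) and over granin cells (black and grey), with the group alone (circles) or the mouse as a block (squares). Ghrl lies between 1.97 and 2.32 in the 4 fits, and Gcg lies near 0. Chga and Chgb chose the granin cells, so their granin-cell values are a description and not a test.

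Summing granin cells alone takes their number out of the comparison. Of the 8 genes that did not choose the cells, 0 passed with the group alone, as did 0 of 7698 genes tested (0.0%; 478 genes, Ghrl, Tph1 and Sct among the 8, at an unadjusted p under 0.05; DESeq2 called Ghrl, with 0.486% of the genes it adjusted). With the mouse as a block, 2 of the 8, Ghrl and Tac1, rose, against 0.546% of all genes called and 0.221% called higher. Control 2 contributes 11 cells to these values, and a single cell gave most of its UMIs for several genes. A different control 2 cell held 159107 of the 343396 UMIs of the granin cells of this library. That cell had Ghrl, Tac1, Tph1, Gcg, Cck and Pyy at 0 UMIs, Sct at 1, Chgb at 2 and Chga at 25. It therefore lowers the control 2 CPM of these genes, and its effect on the fits was not tested.

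Ghrl had the highest log2 fold change of the 8 genes with the group alone. In granin cells it was at 762 and 367 CPM in the controls and at 2764 and 3032 CPM in the knockouts, a log2 fold change of 2.25 ± 0.30 (edgeR adjusted p = 0.0630), or 2.32 ± 0.29 with the block (adjusted p = 5.56e-07). Both knockouts were above both controls, as for 26.6% of the genes tested. Without control 2 the log2 fold change was 1.87 (adjusted p = 1.65e-15, the lone control being taken to vary like the knockouts). With the cell richest in Ghrl left out of each library, the levels were 482, 43.6, 2246 and 2216 CPM. The 3 richest cells gave 77.1%, 99.2%, 53.1% and 75.9% of the Ghrl UMIs of control 1, control 2, knockout 1 and knockout 2. The mean of the single-cell CPM was 1576, 508, 5590 and 2618, so knockout 2 then lay closer to control 1.

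The number of Ghrl cells did not follow its level. Ghrl was present in 10 of 51, 2 of 11, 16 of 53 and 12 of 73 granin cells, or 19.6%, 18.2%, 30.2% and 16.4%, so that the groups overlapped. In the cells that held it, the median share of a cell's UMIs was 0.30% in control 1, 0.27% in control 2, 1.39% in knockout 1 and 0.677% in knockout 2. The control 2 median is of 2 cells. These cells were chosen by 5 or more Ghrl UMIs and differ in depth. In knockout 1 they include shallow cells, such as 1 with 48 Ghrl UMIs of 891 and 1 with 79 of 1284. Within the class with Gcg, Cck or Pyy, Ghrl was at 1601 and 1086 CPM in the controls and 6229 and 5562 CPM in the knockouts.

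Tac1 in granin cells was at 1087, 43.7, 1251 and 1989 CPM. The control 2 value was 15 UMIs from 1 cell. The log2 fold change was 1.41 ± 0.84 (edgeR adjusted p = 0.833), or 2.32 ± 0.55 with the block (adjusted p = 0.0225), and was 0.52 (adjusted p = 0.443) without control 2. Tph1 was at 211, 81.5, 342 and 285 CPM (log2 fold change 0.93 ± 0.33, adjusted p = 0.704), again with both knockouts above both controls, as for 26.6% of genes, and with 96.4% of the control 2 UMIs from 1 cell.

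The other peptide hormones overlapped between the groups. Gcg was at 22769, 19380, 15530 and 28853 CPM (log2 fold change -0.03 ± 0.27), Pyy at 6172, 4490, 3308 and 8781 (0.09 ± 0.38) and Cck at 7629, 13241, 5473 and 11991 (-0.38 ± 0.37). Knockout 1 was the lowest and knockout 2 high for each of the 3, so the 2 knockouts differed more from each other than the group means did. Sct was at 5196, 8847, 2938 and 5310 CPM, with a log2 fold change of -0.89 ± 0.34 (edgeR adjusted p = 0.750; 0.0685 with the block). Chga (2238, 1136, 2546 and 2255 CPM) and Chgb (10381, 2464, 14768 and 13761 CPM) are given without a test.

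Reg4 in granin cells was at 1296, 4651, 3136 and 6034 CPM and overlapped between the groups (log2 fold change 0.49 ± 0.51, edgeR adjusted p = 0.925). In cells below the granin limit Reg4 was at 110 and 115 CPM in control libraries against 162 and 448 CPM in knockout libraries, without overlap and with the knockouts above, as for 21.5% of genes. The log2 fold change there was 1.43 ± 0.54 (edgeR adjusted p = 0.539, with 0 of 12882 genes called, 0.0%, and 1143 at an unadjusted p under 0.05), or 1.23 ± 0.30 with the block (adjusted p = 0.0372, where 16.3% of genes were called and 6.09% called higher). This fit and the fits by class that follow were chosen after these values were seen.

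In goblet-like cells Reg4 was at 401, 356, 1037 and 1392 CPM, a log2 fold change of 1.64 ± 0.24 (edgeR adjusted p = 0.972, with 0 of 10821 genes called and 390 at an unadjusted p under 0.05; DESeq2 was not run on this class). With the mouse as a block it rose by 1.62 ± 0.16 (adjusted p = 7.03e-05), where 7.42% of genes were called and 3.51% called higher. The knockouts lay above the controls, as for 19.8% of genes. Leaving out each library in turn gave 1.35 to 1.89. The difference was seen within 2 goblet-like clusters: 168 and 227 against 722 and 1535 CPM in the cluster led by Atoh1 and Agr2, and 686 and 777 against 1677 and 2358 CPM in the cluster led by Ccl9, Ccl6 and Fcgbp. In the remaining goblet-like cluster, led by Clu, Zg16 and Ly6d, Reg4 was at 12 and 72.3 against 23.2 and 407 CPM, so the groups overlapped, and the 4 libraries held 9, 50, 5 and 103 cells.

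In Paneth-like cells Reg4 was at 808, 582, 1162 and 2278 CPM. The log2 fold change was 1.21 ± 0.27 (edgeR adjusted p = 0.193; 0.0158% of genes were called), or 1.18 ± 0.19 with the block (adjusted p = 0.00240, where 0.931% of genes were called and 0.442% called higher). Sct in the same classes did not pass: it was at 179, 101, 165 and 138 CPM in goblet-like cells (log2 fold change 0.07 ± 0.30, edgeR adjusted p = 0.988) and at 214, 152, 218 and 135 CPM in Paneth-like cells (-0.11 ± 0.28, adjusted p = 0.977).

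The 5 further lists of enteroendocrine genes were read from the granin-cell fit, and with the group alone none of their tested genes passed. The control 2 levels of these lists include the cell of 159107 UMIs, and its effect on them was not tested. For other gut hormones, 7 of 14 were tested, the median log2 fold change was -0.05 (0.00 over all genes tested), and 2 rose with the block, Iapp and Sst. Iapp, which encodes amylin, was at 63.2 and 34.9 CPM in control libraries against 285 and 162 CPM in knockout libraries (2.07 ± 0.32, edgeR adjusted p = 6.24e-05). Sst, which encodes somatostatin, had 0 UMIs in 51 and 11 control cells, which allow up to 5.88% and 27.3% of cells with an Sst UMI, and 1636 and 253 UMIs in the knockouts, from 3 and 2 cells (adjusted p = 7.37e-20 with the block, 0.0782 without), so its call rests on 5 cells. Nts was at 624, 29730, 2108 and 8062 CPM and Gip, the incretin gene, at 1325, 0, 435 and 1351 CPM.

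The granule list held 13 tested genes of 14, with a median log2 fold change of 0.37 and 0 called with or without the block. The fold change was positive for 11 of the 13, and for 50.1% of all genes tested. Cpe was at 827, 722, 1004 and 1266 CPM, Scg2 at 501, 699, 724 and 946, and Resp18, a granule protein gene, at 216, 294, 607 and 416. These values were higher in both knockouts than in both controls, as for 26.6% of genes. In the amine list 6 of 10 genes were tested and 0 called. Ddc, which makes serotonin from its precursor, was at 414, 137, 486 and 442 CPM. Gch1, for the cofactor used by Tph1, was at 333, 172, 418 and 541, and Fev, a serotonin-lineage factor, at 193, 46.6, 183 and 186.

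All 15 endocrine transcription factors were tested and 0 were called, with a median of 0.14. Neurod1 was at 455, 448, 408 and 376 CPM, Insm1 at 525, 131, 354 and 477, and Isl1 at 274, 46.6, 263 and 218. Of the 15 sensing genes 8 were tested and 0 called, with a median of 0.44. Ffar1 was at 167, 111, 195 and 228 CPM, the calcium channel gene Cacna1a at 367, 233, 354 and 397, and Scn3a at 195, 72.8, 227 and 275. Markers of other types in granin cells also varied by library: summed goblet genes were at 3313, 1669, 3802 and 3755 CPM and cycling genes at 928, 1736, 830 and 319 CPM, and their part in these values was not tested.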

How the data were processed

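UMI counts per gene and cell barcode were deposited by the authors for 4 libraries as raw whole-number count matrices. They were made with Cell Ranger 3.0.1 on mm10 per the submitters' processing notes (software version 3.0.0 per the file headers); strand setting and annotation release are not given in the sources used here, so overlapping genes are uncertain. The 10 members, the lists and the tests were chosen with earlier results of these data known.

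Barcodes with under 500 genes (173 of 5602) and the highest Scrublet doublet scores (scanpy 1.11.5; 0.8% per 1000 barcodes in each library, 67 barcodes) were left out; the automatic threshold was not used. Cells were scaled to 10000 counts and clustered on 2000 variable genes, 30 principal components and 15 neighbours (Leiden, resolution 1) into 16 clusters, named from marker lists of 12 types. A name needed 3 detected markers, a score of 0.5 and 1 own marker among the top 10 genes, limits set after the data were examined; 4 clusters stayed unnamed.

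UMIs were summed per library and tested two-sided by edgeR 4.0.16 quasi-likelihood fits on the group alone (TMM scaling, filterByExpr; a gene was called when its p adjusted by Benjamini-Hochberg was below 0.05); DESeq2 1.42.0 and a fit with the mouse as a block were alternatives. A fold change is of CPM, and CPM is not scaled by transcript length, so levels are compared within a gene. The same-numbered libraries come from the same mouse: the labels give 2 mice, and a mouse tag in the deposited data is shared by both libraries of a number. Same-numbered libraries deviated together from their groups over all cells (r = 0.730 across genes) and not over granin cells (r = -0.048). The block leaves 1 residual degree of freedom. With 2 mice, p-values measure the spread between these samples only. Genes named from lists are the 3 with the highest CPM in granin cells plus those called, and likeness names the 3 highest correlations above 0.3 among genes with a UMI in 10% of granin cells; some genes are not reported here. Retained UMIs per library were 21873194 to 34523591. Promoter windows come from RefSeq. The fitting script was tested on simulated data.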

Additional observations from a re-analysis of the deposited data

How the results depend on the processing

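Depth and cell number limit these results: control 2 has 11 granin cells, granin cells are shallower than others, and counting intervals do not cover the spread between mice. The cause of each change below was not tested, except that leaving out a library leaves a group with 1 sample, which is assumed to vary like the other group. Genes called over all cells were 0 with the group alone, 1685 with the replicate block (2 of the 10 members) and 119 with DESeq2 (1 member). Over granin cells they were 0, with 42 under the replicate block (2 members), 12 with DESeq2 (1 member), 4 with RLE size factors (1 member), 116 without a filter on low counts (4 members), 2 with the limit at 10 UMIs (0 members) and 3 to 435 (0 to 5 members) with a library left out. The share of granin cells differed by -0.893 to 1.93 points with a library left out, and the share with 2 or more hormones by 6.63 to 12.01 points, or -3.20 in thinned cells. The latter share differed by 4.03 points with the granin limit at 10 UMIs and by 4.81 with hormones counted from 10 UMIs. It differed by 8.46 points with the granin limit at 3 UMIs, 8.99 over all deposited barcodes and 14.7 with hormones counted from 3 UMIs. In granin cells the log2 fold change of Gcg was 0.0067 without the filter, and that of Pyy was -0.084 with the replicate block and -0.049 over all deposited barcodes. With a library left out, log2 fold changes that changed sign spanned, over all cells, -0.56 to 1.34 for Chga, -0.19 to 2.80 for Chgb, -0.077 to 2.16 for Tph1, -0.046 to 5.51 for Tac1, -0.85 to 0.50 for Gcg, -1.11 to 0.75 for Pyy and -1.19 to 0.17 for Cck; over granin cells, -0.59 to 0.38 for Gcg, -0.83 to 0.65 for Pyy, -1.10 to 0.15 for Cck and -0.18 to 1.77 for Reg4; and for Sct, -0.30 to 0.51 in goblet-like and -0.62 to 0.30 in Paneth-like cells. Ghrl kept a positive log2 fold change in the alternatives run, from 1.31 to 3.27 over all cells and from 1.87 to 2.81 over granin cells, with adjusted p (edgeR or DESeq2) of 0.0331 to 0.999 and 3.85e-30 to 0.0818. The replicate block changed the call of no member other than Ghrl, Reg4 and Tac1 among those tested.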

Other observations

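Vim, which encodes the intermediate filament vimentin, was found in granin cells that held hormones. It was at 1450 CPM in the class with Gcg, Cck or Pyy (1493, 552, 574 and 2120 CPM in control 1, control 2, knockout 1 and knockout 2) and at 1467 CPM in the class with Tph1 (1258, 352, 1528 and 1961 CPM). In the 35 granin cells that held no hormone Vim was at 13.1 CPM, in the Sct-alone cells at 76.6 CPM, and in the 7 Ghrl-alone cells at 0 UMIs. These genes were looked at after the values were seen, and no test was made.

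The 7 granin cells with Ghrl and no Tph1, Tac1, Gcg, Cck or Pyy, 2 of which held Sct, came from control 1 (4 cells) and knockout 1 (3 cells). Isl1 was at 1235 CPM in them, while Chgb was at 715 and Chga at 3609 CPM. Sst was found in 2 of the 7, with 552 UMIs.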
